A study of Homo sapiens with 4 samples.

Results

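The 9 genes described here make prostaglandins, destroy them or receive them: PTGS1, PTGS2, PTGES, PTGES2, PTGES3, PTGIS, HPGD, PTGER2 and PTGER4. They were taken by symbol from the 33538 genes listed, and all 9 were present. Their transcripts were counted in single cells of HCEC 1CT, colonic epithelial cells of human origin made immortal by TERT and CDK4. They carried either shAPC, an shRNA that targets APC, or the scrambled control shScr, were selected with puromycin, and were harvested 3 or 7 days after transduction. Each of the 4 combinations of shRNA and day was a group with 1 library. All were grown in one medium with EGF, insulin, transferrin, selenite, serum and hydrocortisone. shAPC was a single shRNA, and hydrocortisone is a glucocorticoid, a class of hormone known to lower PTGS2 expression.

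Prostaglandins are lipid signals made from arachidonic acid that phospholipases free from membranes. The cyclooxygenases PTGS1, present in many cells at rest, and PTGS2, switched on by cytokines, growth factors and stress, turn it into prostaglandin H2, from which terminal synthases make the final products. In the colon prostaglandin E2 is tied to adenoma growth in carriers of APC mutations, it acts on epithelial cells through the receptors EP2 (PTGER2) and EP4 (PTGER4) and cyclic AMP, and HPGD removes it. The question addressed was whether transcripts of this pathway differed between cells with and without APC knockdown.

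The kept cells numbered 1116 for shScr and 788 for shAPC at day 3, and 2600 for shScr and 1478 for shAPC at day 7, and their UMIs (distinct molecules) totalled 28451455 to 39797418 per library. Values for the 4 libraries are given in this order throughout where no library is named. Levels are the UMIs of a gene summed over these cells and scaled to the library's total (CPM, counts per 1000000 UMIs), so fewer cells with a transcript and less of it per cell cannot be told apart in them. All intervals are 95% and cover counting error only: with 1 library per group no difference below has a replicate check and no test was run. The median depth per cell was 35109, 49685.5, 1330 and 21029.5 UMIs in the same order. Between 2 and 25 barcodes occurred in both of any pair of libraries. APC itself was at 16.1 CPM in shScr day 3 and 5.52 CPM in shAPC day 3, and at 19.1 and 6.61 CPM at day 7. AXIN2, a feedback target of Wnt signalling, stood at 0.352 CPM in shScr day 3, 1.63 CPM in shAPC day 3, 0.128 CPM in shScr day 7 and 4.11 CPM in shAPC day 7. NKD1, another Wnt feedback gene, had 1 and 12 UMIs at day 3 and 7 and 59 UMIs at day 7, shScr first. The epithelial label was poorly borne out. Of 10 epithelial markers, 4 had more than 3 UMIs in each library. These were KRT8 (299 to 678 UMIs), CLDN7 (178 to 592), KRT18 (86 to 249) and KRT19 (73 to 200). The list summed to 25 to 49.3 CPM, with EPCAM at 0 to 2 UMIs and CDX2, MUC2 and KRT20 at 0. All 8 mesenchymal markers, by contrast, had more than 3 UMIs and summed to 9495 to 12075 CPM. CD68 was the only one of 6 immune markers above 3 UMIs.

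The genes lie on 7 chromosomes of hg38 and all are protein coding in GENCODE 44. PTGS2 occupies chr1:186671791-186680922 on the minus strand and PTGS1 chr9:122370530-122395703 on the plus strand. PTGES (chr9:129738331-129753042) and PTGES2 (chr9:128120693-128128462) are also on chromosome 9, both on the minus strand, and PTGES3 is at chr12:56663341-56688408, minus strand. The receptor genes PTGER2 (chr14:52314305-52328598) and PTGER4 (chr5:40679915-40693735) are on the plus strand. PTGIS is at chr20:49503874-49568137 and HPGD at chr4:174490175-174523154, both on the minus strand.

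The promoters of PTGS2, PTGES, PTGER2 and PTGER4 are printed because the results below turn on these genes. Each is the 250 bases before the RefSeq start (build GRCh38.p14), read 5′ to 3′ on the gene's strand. The windows are chr1:186680424-186680673 for PTGS2, chr9:129753043-129753292 for PTGES, chr14:52314062-52314311 for PTGER2 and chr5:40679665-40679914 for PTGER4. Capitals mark matches, on either strand, to any of 6 motifs. These were the TATA box TATAAA, the core TGACG of the cyclic AMP response element, the AP-1 site TGANTCA, an NF-kB site (GGG, any 2 bases, T, any 2 bases, CC), and the letters CTTTGAT or CTTTGTT read by TCF/LEF, the transcription factors of Wnt signalling.
PTGS2 promoter: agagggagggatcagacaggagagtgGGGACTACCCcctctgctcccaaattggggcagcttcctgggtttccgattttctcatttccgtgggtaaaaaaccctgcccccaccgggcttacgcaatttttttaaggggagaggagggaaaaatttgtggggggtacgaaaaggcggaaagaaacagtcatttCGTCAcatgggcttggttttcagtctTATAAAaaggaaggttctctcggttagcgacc
PTGES promoter: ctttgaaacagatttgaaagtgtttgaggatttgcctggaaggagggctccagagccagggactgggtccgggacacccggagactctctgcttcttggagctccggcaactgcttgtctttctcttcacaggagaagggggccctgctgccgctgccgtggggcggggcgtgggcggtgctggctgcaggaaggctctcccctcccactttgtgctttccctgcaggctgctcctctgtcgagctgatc
PTGER2 promoter: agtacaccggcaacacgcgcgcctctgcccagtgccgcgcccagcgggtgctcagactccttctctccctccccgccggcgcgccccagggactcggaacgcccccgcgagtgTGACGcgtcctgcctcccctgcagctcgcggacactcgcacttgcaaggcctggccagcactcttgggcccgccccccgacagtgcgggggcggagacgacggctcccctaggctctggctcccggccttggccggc
PTGER4 promoter: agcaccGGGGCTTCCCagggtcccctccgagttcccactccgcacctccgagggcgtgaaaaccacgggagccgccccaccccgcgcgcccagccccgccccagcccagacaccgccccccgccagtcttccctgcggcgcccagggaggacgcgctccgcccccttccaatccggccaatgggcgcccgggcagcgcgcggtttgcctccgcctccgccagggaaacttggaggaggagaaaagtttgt
The PTGS2 window held 3 of the 6 motifs: the NF-kB letters at -224 to -215 from the start, TGACG in its reverse form at -58 to -54, and TATAAA at -32 to -27. Among the 35116 promoter windows in the table, 10.7% held TATAAA, 21.2% TGACG and 19.7% the NF-kB letters on either strand. PTGER2 held TGACG, PTGER4 the NF-kB letters and PTGES none of the motifs. Neither TCF/LEF motif, present in 2.26% and 4.5% of all windows, was found in these 4, nor was TGANTCA (6.57%). A match of letters is a description and not a bound site.

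Among the genes PTGS2 alone differed by 2-fold or more between shAPC and shScr, and it did so in opposite directions on the 2 days. There were 15 PTGS2 UMIs in shScr day 3 (0.377 CPM, 0.211 to 0.622), 82 in shAPC day 3 (2.35 CPM, 1.87 to 2.91), 48 in shScr day 7 (1.54 CPM, 1.13 to 2.04) and 13 in shAPC day 7 (0.457 CPM, 0.243 to 0.781). The high libraries were thus shAPC day 3 and shScr day 7, and their intervals overlapped neither of those of the low pair, shScr day 3 and shAPC day 7. As a log2 ratio of shAPC to shScr, the difference was 2.64 at day 3 (1.83 to 3.54) and -1.75 at day 7 (-2.76 to -0.84). From day 3 to day 7 PTGS2 was 2.03 higher in shScr (1.17 to 2.97) and 2.36 lower in shAPC (a log2 ratio of -2.36, -3.33 to -1.51); these comparisons reuse the same libraries. Over all genes 1.96% were at least 2-fold higher at day 7 in shScr, and 8.31% at least 2-fold lower in shAPC. Of all 14505 genes with at least 20 UMIs over the pair, 9.97% were at least 2-fold higher in shAPC at day 3 and 0.882% at least 2-fold lower, and at day 7 (13983 genes) 4.93% were higher and 2.61% lower. Such folds were more common among genes as scarce as PTGS2: with 20 to 200 UMIs, 22.5% were 2-fold higher and 2.27% lower at day 3, and 13.9% higher and 4.97% lower at day 7. With 1 of 8 genes past 2-fold on each day, the share is close to the background.

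**Figure D1:**
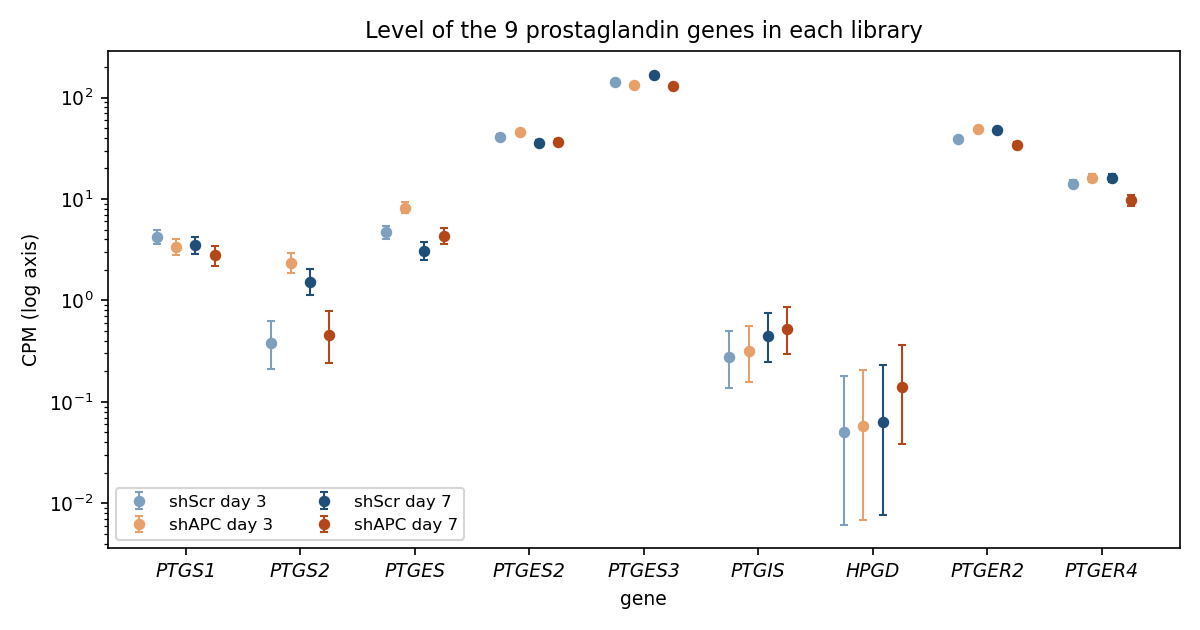
Level of each gene in CPM (log axis) in the 4 libraries, with exact Poisson 95% intervals. PTGES3 is highest at 130 to 168 CPM, and PTGS2 is the gene whose libraries lie farthest apart, from 0.377 to 2.35 CPM.

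PTGS2 transcripts were rare in every library and unevenly spread. A PTGS2 UMI was found in 14 cells of shScr day 3 (1.25%), 46 of shAPC day 3 (5.84%), 27 of shScr day 7 (1.04%) and 12 of shAPC day 7 (0.812%). The richest cell held 2, 9, 13 and 2 UMIs in that order, and 11 cells of shAPC day 3 and 5 of shScr day 7 held 2 or more, against 1 in each of the others. The share of cells with a UMI was thus highest in shAPC day 3, whereas in shScr day 7, a high library by CPM but a shallow one per cell, it was no higher than in shScr day 3. Without the richest cell of each library, an alternative added after the data were seen, the log2 ratios were 2.68 and -1.54. After thinning each cell to 2000 UMIs, which left 899, 673, 1198 and 1087 cells, PTGS2 was found in 0 cells of shScr day 3 (a count of 0 allows up to 0.334%), 6 of shAPC day 3 (0.892%, 0.328 to 1.93), 5 of shScr day 7 (0.417%, 0.136 to 0.971) and 2 of shAPC day 7 (0.184%, 0.0223 to 0.663). At that depth the shares kept the order of the CPM, but the intervals overlapped between all 4 libraries. The culture holds no other cell type to give a background share from free RNA, so none is given.

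Cells with a PTGS2 UMI were compared with the other cells of their library for stress and cytokine transcripts. Among cells of at least 5000 UMIs, ATF3, a stress-induced transcription factor, was found in 21 of 45 PTGS2 cells of shAPC day 3 (46.7%, 31.7 to 62.1) and in 17.5% of the other cells (14.5 to 20.9). In shScr day 7 the figures were 7 of 27 (25.9%, 11.1 to 46.3) and 3.96% (2.85 to 5.36). ATF3 as a whole followed the same order of libraries as PTGS2, at 1.03, 44.7, 15.4 and 3.37 CPM. IL1A, the alarm cytokine interleukin-1 alpha, was found in 9 of 45 PTGS2 cells of shAPC day 3 (20%, 9.58 to 34.6) and 3.85% of the others (2.43 to 5.78), but in shScr day 7 the intervals overlapped (2 of 27, 0.91 to 24.3%, and 0.991%, 0.476 to 1.82). IL6 in shScr day 7 was in 7 of 27 PTGS2 cells (25.9%, 11.1 to 46.3) and 5.65% of the others (4.31 to 7.26), and PTGES there in 6 of 27 (22.2%, 8.62 to 42.3) and 5.95% (4.57 to 7.59). In shAPC day 3, by contrast, PTGES was in 20% of PTGS2 cells and 20.1% of the others, and the IL6 intervals overlapped (24.4%, 12.9 to 39.5, and 12.1%, 9.52 to 15). For IL1B the intervals overlapped in both libraries. PTGS2 cells were deeper than other cells, with medians of 59960 against 48488 UMIs in shAPC day 3 and 32501 against 1274 in shScr day 7 over all kept cells. At an equal depth of 5000 UMIs per cell, PTGS2 was found in 3 of 36 cells with an ATF3 UMI and 5 of 580 without in shAPC day 3, with a log2 ratio of PTGS2 CPM of 3.43 (1.16 to 5.50). In the same library PTGS2 was found in 1 of 8 cells with an IL1A UMI and 7 of 608 without. That log2 ratio was 3.08 with an interval that holds 0 (-2.38 to 5.93), so the IL1A difference rests on full depth. In shScr day 7 PTGS2 was found in 0 of 17 cells with an ATF3 UMI and 4 of 1019 without, so the difference seen at full depth was not detectable there. For PTGES in shScr day 7 it was likewise 0 of 17, and for IL6 1 of 19 cells with an IL6 UMI and 3 of 1017 without. In shScr day 3 and shAPC day 7 only 14 and 12 such cells were available, ATF3 was in 2 and 0 of them, and their intervals overlapped those of the other cells.

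PTGS2 depended on the limit on mitochondrial transcripts, by which 23.5%, 23.4%, 28.8% and 51.1% of barcodes had been left out. In barcodes removed for 5% or more mitochondrial UMIs, PTGS2 was at 2.96 CPM (14 UMIs) in shScr day 3, 1.62 CPM (9 UMIs) in shAPC day 3, 0.704 CPM (9 UMIs) in shScr day 7 and 1.06 CPM (27 UMIs) in shAPC day 7. The removed barcodes of shScr day 3 thus held more PTGS2 than its kept cells, by 2.97 on the log2 scale (1.81 to 4.12), and so did those of shAPC day 7, by 1.21 (0.21 to 2.29). In shScr day 7 the removed barcodes held less (-1.13, -2.34 to -0.08), and in shAPC day 3 the interval held 0 (-0.53, -1.71 to 0.46). Between shAPC and shScr the removed barcodes gave log2 ratios of -0.87 (-2.26 to 0.44) at day 3 and 0.59 (-0.54 to 1.86) at day 7, both opposite in sign to the kept cells and both with intervals that hold 0. Over all deposited barcodes the ratios were 1.79 (1.17 to 2.44) and -0.80 (-1.43 to -0.20), the latter short of 2-fold. This comparison was chosen after its values were seen.

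**Figure D2:**
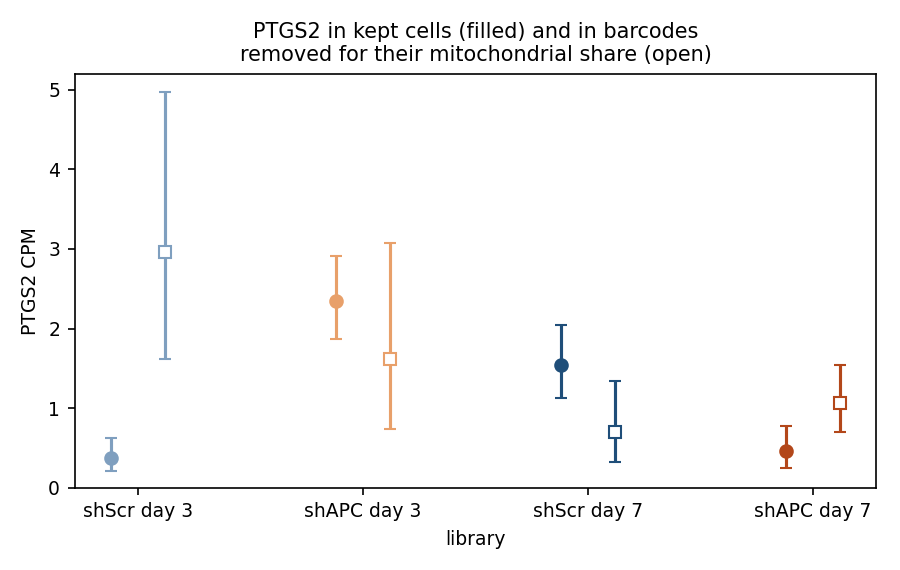
PTGS2 in CPM in each library, in kept cells (filled circles) and in barcodes removed for their mitochondrial share (open squares), with exact Poisson 95% intervals. The removed barcodes of shScr day 3 lie at 2.96 CPM, above the kept cells of all 4 libraries, of which the highest is 2.35 CPM.

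PTGS1, the constitutive cyclooxygenase, had 168 UMIs in shScr day 3 (4.22 CPM), 118 in shAPC day 3 (3.38 CPM), 109 in shScr day 7 (3.49 CPM) and 79 in shAPC day 7 (2.78 CPM). By CPM it was the more abundant cyclooxygenase in each library, with the smallest margin in shAPC day 3. In cells thinned to 5000 UMIs the order turned in that library, with PTGS1 in 5 of 616 cells (0.812%, 0.264 to 1.88) and PTGS2 in 8 (1.30%, 0.562 to 2.54), and the intervals overlapped. These levels are per transcript end, since the kit reads the 3′ end, and were not divided by gene length. The shAPC/shScr ratios, -0.32 (-0.67 to 0.03) at day 3 and -0.33 (-0.77 to 0.10) at day 7, had intervals that hold 0. The median gene, however, was 0.35 higher in shAPC at day 3. Relative to that median PTGS1 was at -0.67, so its day 3 result depends on the scaling.

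Of the prostaglandin E synthases, PTGES, the inducible microsomal enzyme usually coupled to PTGS2, was the one whose ratio interval lay above 0 on both days. It had 186 UMIs in shScr day 3 (4.67 CPM), 288 in shAPC day 3 (8.24 CPM), 96 in shScr day 7 (3.07 CPM) and 123 in shAPC day 7 (4.32 CPM). The shAPC/shScr log2 ratios were 0.82 (0.55 to 1.09) and 0.49 (0.10 to 0.89), short of 2-fold, though past the 1.5-fold that 28.8% of genes reached upwards at day 3, and the level was lower at day 7 than at day 3 in shScr (a log2 ratio of -0.60, -0.98 to -0.24) and in shAPC (-0.93, -1.25 to -0.62). In the day 3 barcodes removed for mitochondrial share the direction was opposite, with 46 UMIs in shScr and 29 in shAPC (-0.90, -1.62 to -0.19). When each cell's CPM was averaged in place of summing UMIs, the day 7 ratio became -0.55.

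PTGES2, another membrane-associated E synthase, was nearly level across the libraries at 41.2 CPM in shScr and 46 CPM in shAPC at day 3, and 35.6 and 36.8 CPM at day 7. Its day 3 ratio of shAPC to shScr was 0.16 on the log2 scale (0.06 to 0.26), and its day 7 ratio 0.05 (-0.07 to 0.17). The day 3 value has to be read against the whole table, in which the median gene was 0.35 higher in shAPC at day 3 and 80.7% of genes were higher. Relative to that median PTGES2 was at -0.19, so its direction at day 3 depends on the scaling.

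PTGES3, the cytosolic E synthase also known as p23, a co-chaperone of HSP90, was the most abundant of the genes at 141, 134, 168 and 130 CPM in the same order. Its highest library was shScr day 7, and the other 3 lay close together. At day 3 shAPC and shScr differed by a log2 ratio of -0.08 (-0.13 to -0.02), and at day 7 by -0.37 (-0.43 to -0.31). Relative to the median gene of each day PTGES3 was at -0.43 and -0.37, so the size of its day 3 difference depends on the scaling. HSP90AA1, the stress-inducible chaperone partner of PTGES3, had ratios of 0.23 and -0.55 at day 3 and day 7, not taken relative to the median gene. Over 10 listed HSP90 partners the median ratios were 0.30 and -0.02, near those of all genes (0.35 and 0.00), with none past 2-fold on either day. Of all genes 9.97% were past 2-fold upwards and 0.882% downwards at day 3, and 4.93% and 2.61% at day 7. FKBP4 (0.94 and 0.30) and FKBP5 (0.67 and 0.33), both HSP90 co-chaperones of steroid receptors, differed most upwards. PTGES3 has processed pseudogenes of near-identical sequence, which leaves its count uncertain.

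PTGIS, the prostacyclin synthase, was barely detected at 11, 11, 14 and 15 UMIs (0.276 to 0.527 CPM), and its ratios of 0.19 (-1.16 to 1.53) and 0.23 (-0.92 to 1.39) set no direction. HPGD, which inactivates prostaglandin E2, had 2, 2, 2 and 4 UMIs. No difference in HPGD was detectable at this depth, and with fewer than 20 UMIs over each pair it was the 1 gene of the 9 left out of the counts past 2-fold.

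**Figure D3:**
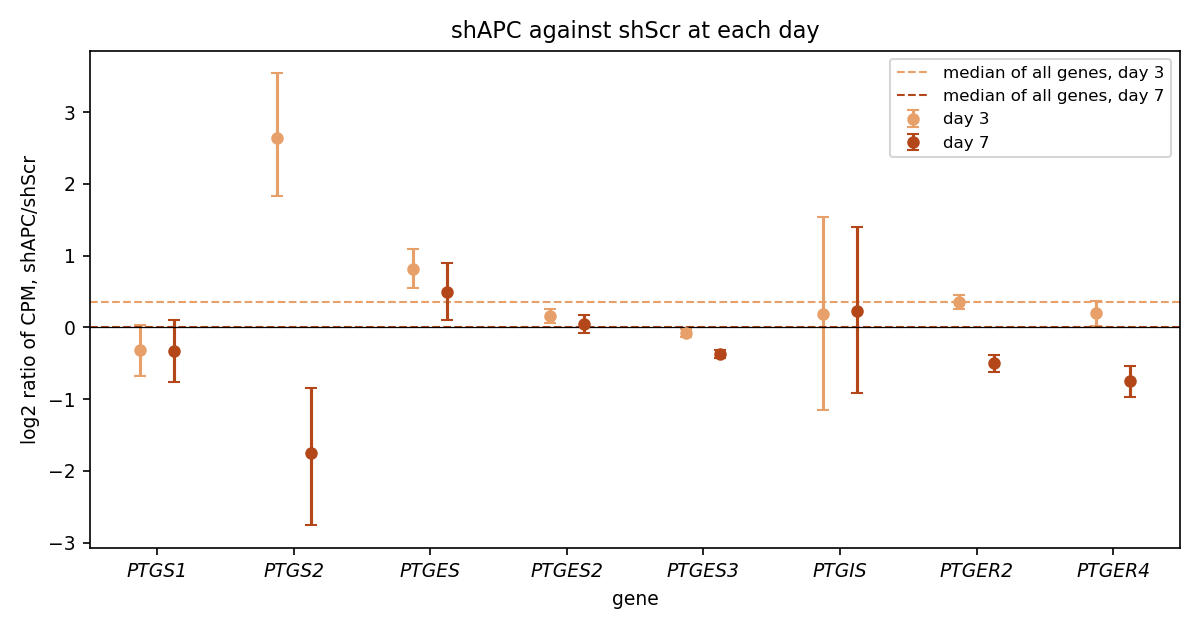
Log2 ratio of CPM, shAPC over shScr, at day 3 and day 7 for the 8 genes with at least 20 UMIs over the pair, with exact 95% counting intervals; dashed lines are the median of all genes (0.35 at day 3 and 0.00 at day 7). PTGS2 lies at 2.64 and -1.75, and PTGER2 and PTGER4 lie near the day 3 line and below the day 7 line.

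Both prostaglandin E2 receptors that raise cyclic AMP were lower in shAPC than in shScr at day 7. PTGER2 had 1539 UMIs in shScr day 3 (38.7 CPM, 36.8 to 40.7), 1724 in shAPC day 3 (49.3 CPM, 47 to 51.7), 1502 in shScr day 7 (48.1 CPM, 45.7 to 50.6) and 968 in shAPC day 7 (34 CPM, 31.9 to 36.2). PTGER4 had 562 (14.1 CPM, 13 to 15.3), 564 (16.1 CPM, 14.8 to 17.5), 507 (16.2 CPM, 14.9 to 17.7) and 275 UMIs (9.67 CPM, 8.56 to 10.9) in the same order. The lowest library was shAPC day 7 for both receptors. Its interval overlapped none of the others for PTGER4 and none for PTGER2. The log2 ratio at day 7 was -0.50 (-0.62 to -0.38) for PTGER2 and -0.75 (-0.97 to -0.53) for PTGER4, neither past 2-fold. At 1.5-fold or more, PTGER4 was among the 8.9% of genes lower in shAPC at day 7. At day 3 the ratios were 0.35 (0.25 to 0.45) and 0.19 (0.02 to 0.36), at or below the median gene of that day, so relative to all genes PTGER2 was at 0.00 and PTGER4 at -0.16. In the barcodes removed at day 7 both receptors were again lower in shAPC, by log2 ratios of -0.54 (-0.70 to -0.37) and -0.45 (-0.74 to -0.16).

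The other prostanoid receptors were not past 2-fold on either day. Of the 6 of 8 that could be compared, the median ratio was 0.11 at day 3 and -0.25 at day 7. Over all genes the median at day 3 was 0.35, with 9.97% at least 2-fold higher and 0.882% lower. The shares at day 7 were 4.93% and 2.61%. PTGIR, the prostacyclin receptor, which also raises cyclic AMP, had 421, 308, 236 and 115 UMIs and ratios of -0.26 (-0.48 to -0.05) and -0.90 (-1.24 to -0.58). PTGFR, the receptor of prostaglandin F2 alpha, had ratios of -0.17 (-0.41 to 0.06) and -0.33 (-0.60 to -0.06). Relative to the median gene of day 3 PTGIR was at -0.61 and PTGFR at -0.53, so their day 3 results depend on the scaling. PTGER1, the calcium-coupled E receptor, was at 22, 33, 32 and 25 UMIs. PTGFRN, which binds the F receptor, had ratios of -0.10 (-1.55 to 1.31) and 0.94 (-0.41 to 2.40) on 8 to 14 UMIs. The genes that carry the EP2 and EP4 signal, 14 of the G protein, adenylyl cyclase, protein kinase A, CREB and phosphodiesterase families, held none past 2-fold, with medians of 0.19 and 0.06. The day 3 median lay below that of all genes (0.35). CREB1, the transcription factor at the end of that chain, was at 0.67 and 0.08, its relative ATF1 at 0.55 and 0.01, and PDE4D, which breaks cyclic AMP down, was at 0.64 and 0.17. Relative to the median gene their day 3 values were 0.32, 0.20 and 0.29.

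PTGES3 was higher in cycling cells of each library, whereas PTGES2 was not separated from 0 in any and the receptors only in some. In cells thinned to 5000 UMIs, a UMI of MKI67, a marker of cycling cells, was found in 10.4%, 11.4%, 13.1% and 9.66% of the cells left in each library. PTGES3 was higher in cells with an MKI67 UMI than in those without by 0.95 (0.63 to 1.26), 1.09 (0.75 to 1.42), 0.59 (0.35 to 0.83) and 0.84 (0.53 to 1.14) on the log2 scale. PTGER2 was higher by 0.89, 0.37, 1.01 and 1.07 in the same order, with an interval that holds 0 in shAPC day 3. For PTGES2 the values were 0.34, 0.43, 0.48 and 0.19, all with intervals that hold 0. PTGER4 was higher by 1.59 in shScr day 3 (0.64 to 2.47) and by 0.88 in shScr day 7 (0.08 to 1.61). In both shAPC libraries its interval held 0, at 0.53 (-1.20 to 1.93) at day 3 and 1.32 (-0.02 to 2.48) at day 7. Only 5 and 8 PTGER4 UMIs lay in their cells with an MKI67 UMI, so no difference between shAPC and shScr can be read from this. Cells of 1 library share their source, so these are descriptions of that library. Restricted to cells without an MKI67 UMI, the day 7 shAPC/shScr ratios were -0.47 (-0.63 to -0.31) for PTGES3, -0.41 (-0.72 to -0.10) for PTGER2 and -1.26 (-1.93 to -0.63) for PTGER4, against -0.45, -0.44 and -1.22 in all thinned cells. Cells with an MKI67 UMI were few, so leaving them out could change these ratios little. Within them the day 7 ratios were -0.22 (-0.58 to 0.14) for PTGES3 and -0.34 (-0.99 to 0.29) for PTGER2. For PTGER4 the value within them was -0.82 (-2.21 to 0.43), and all of these intervals hold 0. Whether cycling bears on the day 7 differences was not tested.

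**Figure D4:**
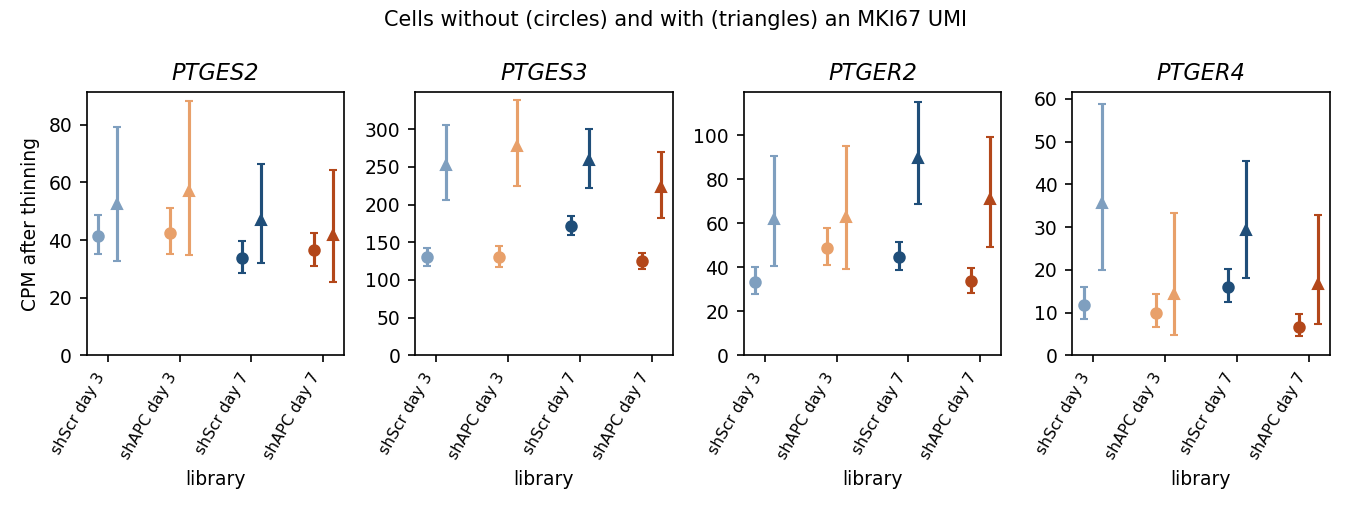
CPM of PTGES2, PTGES3, PTGER2 and PTGER4 after thinning cells to 5000 UMIs, in cells without (circles) and with (triangles) an MKI67 UMI, with exact Poisson 95% intervals. PTGES3 in cells with an MKI67 UMI lies above the cells without in all 4 libraries, by 0.59 to 1.09 on the log2 scale.

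The genes whose counts followed PTGES3 most closely from cell to cell were HMGB1, H2AFZ, UBE2S, UBE2C and CKS2, of 3821 genes with at least 20 CPM in each library, with the lowest r of the 4 libraries at 0.155 to 0.178 (log-transformed UMIs of cells thinned to 5000). For PTGER2 they were DEK, CAV1, CDKN3, CLDN11 and AXL at 0.0782 to 0.0965. These correlations are weak, the cells share library and depth, and both genes were chosen for this after values had been seen. For PTGS2 no such list could be made, since shAPC day 7 held 0 PTGS2 UMIs after thinning.

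Upstream of the cyclooxygenases, the enzymes that release arachidonic acid held a few large day 3 ratios. Of 12 listed, 8 could be compared, 3 were 2-fold or more higher in shAPC at day 3 and none lower (9.97% of all genes were higher, and 22.5% of those with 20 to 200 UMIs, as PLA2G4C and FAAH have), and the median of 0.66 stood above that of all genes (0.35). PLA2G4C, a cytosolic phospholipase A2, had 15 UMIs in shScr day 3, 116 in shAPC day 3, 38 in shScr day 7 and 27 in shAPC day 7, with ratios of 3.14 (2.36 to 4.02) and -0.36 (-1.13 to 0.39). DAGLB, a diacylglycerol lipase, was at 1.32 (1.14 to 1.51) and 0.34 (0.09 to 0.60), and FAAH, which hydrolyses anandamide to arachidonic acid, at 1.39 (0.26 to 2.62) and 1.04 (-0.29 to 2.49). PLA2G4A, the phospholipase classically upstream of PTGS2, was at 0.88 (0.36 to 1.42) and -0.47 (-1.26 to 0.30). At day 7 the median of the list was 0.02, with FAAH past 2-fold upwards and MGLL, a monoacylglycerol lipase, past it downwards at 49.9% of the shScr level. Of all genes 4.93% were past 2-fold upwards and 2.61% downwards on that day. Among genes with 20 to 200 UMIs, as FAAH has, 13.9% were past it upwards.

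Among synthases of the other prostanoids, PTGDS and AKR1C3 differed in opposite directions at day 7. PTGDS, the prostaglandin D synthase, had 54, 72, 70 and 266 UMIs (1.36, 2.06, 2.24 and 9.35 CPM). The shAPC day 7 library stood apart, with a log2 ratio to shScr of 2.06 (1.68 to 2.46), against 0.60 (0.07 to 1.14) at day 3. AKR1C3, which makes prostaglandin F2 alpha, was at 0.24 (-0.31 to 0.78) and -1.07 (-1.84 to -0.34), and TBXAS1, the thromboxane synthase, at 0.71 (0.50 to 0.91) and 0.43 (0.20 to 0.67). Of 7 such genes compared, 0 were past 2-fold at day 3 (median 0.42), and 1 was higher and 1 lower at day 7 (median -0.16). Of all genes 9.97% were higher at day 3, when their median was 0.35, and 4.93% were higher and 2.61% lower at day 7. Among genes with 20 to 200 UMIs, as AKR1C3 has, the shares were 13.9% and 4.97%. Counts of 1 each way in so short a list set no direction for it. Among transport and breakdown genes, AKR1C1, a ketosteroid reductase that also acts on prostaglandins, had 340, 1034, 355 and 474 UMIs with ratios of 1.79 (1.61 to 1.97) and 0.55 (0.35 to 0.75). Of 6 genes of this group compared, AKR1C1 alone was past 2-fold at day 3 (median 0.27) and AKR1C2 alone at day 7, downwards (median -0.14). The shares over all genes were 9.97% higher at day 3 and 2.61% lower at day 7. The AKR1C genes are near-identical in sequence, so reads may be shared among them. AKR1C2 was at 0.07 and -1.10, and CBR3, a carbonyl reductase, at 0.23 and -0.99. The lipoxygenase branch, which takes the same arachidonic acid to leukotrienes, had 3 of 8 genes that could be compared, ALOX5AP, ALOX15B and LTA4H, none past 2-fold on either day, with medians of -0.20 and 0.26.

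Of the cytokines known to induce PTGS2, IL1A had the same order of libraries with larger ratios. It had 6 UMIs in shScr day 3, 172 in shAPC day 3, 31 in shScr day 7 and 5 in shAPC day 7, with ratios of 5.03 (3.88 to 6.50) and -2.50 (-4.22 to -1.12). TNF, the tumour necrosis factor, had 19, 49, 21 and 1 UMIs, with 1.55 (0.76 to 2.40) at day 3 and, on a single UMI, -4.26 (-9.63 to -1.62) at day 7. IL1B, the other interleukin-1, did not show this: it had 27, 29, 23 and 13 UMIs. Of 13 genes of this list compared, 2 were 2-fold higher at day 3 and 1 lower at day 7, with medians of 0.65 and -0.20, and EGFR was at 0.83 and -0.10. Beside this, 9.97% of all genes were higher at day 3, when their median was 0.35, and 2.61% lower at day 7. Among genes with 20 to 200 UMIs, as IL1A and TNF have, 22.5% were higher at day 3 and 4.97% lower at day 7. No gene of the 10 that govern the stability or translation of PTGS2 mRNA was past 2-fold (medians 0.29 and -0.03). The day 3 median was below the 0.35 of all genes. ZFP36, which binds AU-rich elements and speeds decay, was at 0.03 (-0.10 to 0.16) at day 3 and -0.72 (-0.89 to -0.56) at day 7. TIA1, a translational silencer, and CELF2, which also binds PTGS2 mRNA, were at 0.68 and 0.31 at day 3 and at 0.00 and 0.56 at day 7.

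Genes known to be induced by prostaglandin E2 or cyclic AMP were compared in 14 of 15 cases. At day 3, 3 were 2-fold or more higher in shAPC and none lower, with a median of 0.48, beside 9.97% of all genes higher, 22.5% of genes with 20 to 200 UMIs such as NR4A3, and a median of 0.35, and at day 7, 1 was higher and 1 lower, with a median of -0.17. The all-gene shares at day 7 were 4.93% higher and 2.61% lower. Among genes with 20 to 200 UMIs, as NR4A2 has, 13.9% were higher. IL6 had 121, 381, 166 and 95 UMIs, with ratios of 1.84 (1.54 to 2.15) and -0.67 (-1.05 to -0.30), the same order of libraries as PTGS2. NR4A3, an immediate-early nuclear receptor, had 11, 35, 18 and 11 UMIs, at 1.86 (0.85 to 2.98) and -0.58 (-1.80 to 0.58), and its relative NR4A2 had 6, 12, 5 and 15, at 1.72 (0.19 to 3.53) at day 7. AREG, an EGF receptor ligand, was at 0.45 (0.30 to 0.61) at day 3 and at 35.3% of the shScr level at day 7 (log2 interval -1.70 to -1.31). VEGFA, the angiogenic growth factor, was at 1.01 (0.88 to 1.14) and 0.58 (0.43 to 0.74). NR4A1, by contrast, was level at -0.04 and 0.01.

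**Figure D5:**
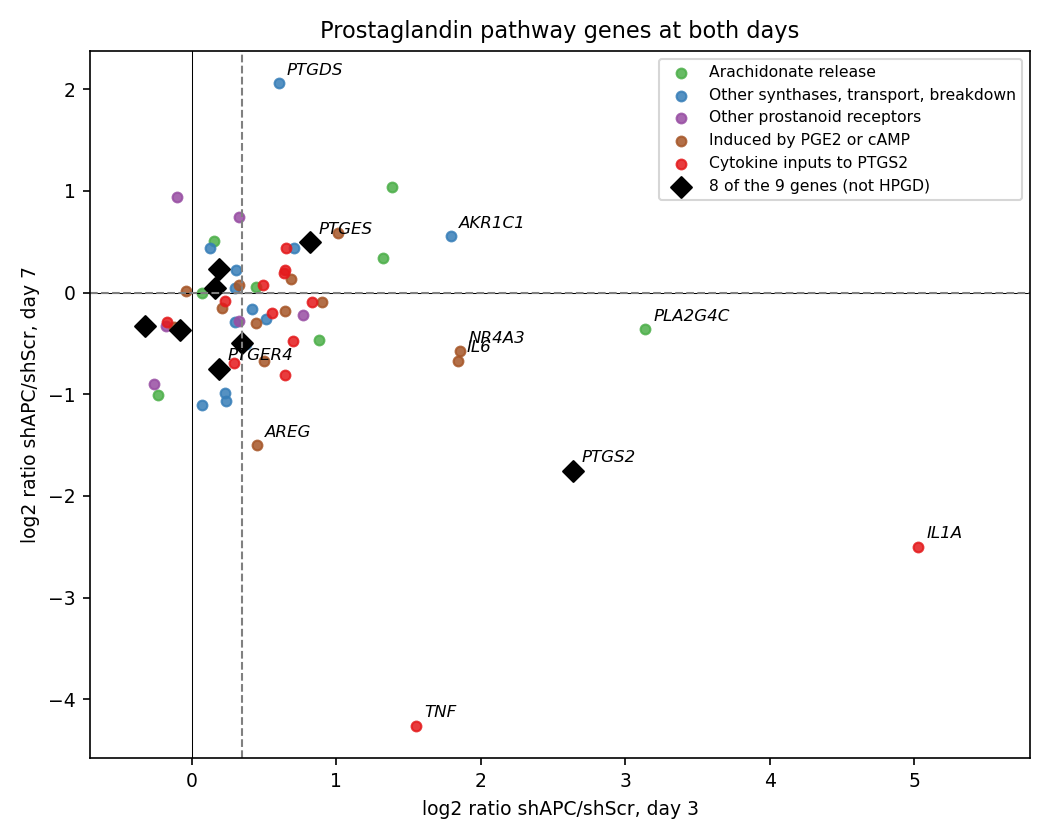
Each point is a gene with at least 20 UMIs over the pair on both days, placed by its shAPC/shScr log2 ratio at day 3 (horizontal) and day 7 (vertical), coloured by pathway group; dashed lines are the medians of all genes. PTGS2 (2.64, -1.75) and IL1A (5.03, -2.50) lie at lower right with TNF, whose day 7 value rests on 1 UMI, and PTGDS (0.60, 2.06) lies at the top.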

How the data were processed

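Single-cell RNA-seq libraries of HCEC 1CT cells were analysed, 1 per group (shScr or shAPC, day 3 or day 7). The deposited files hold raw UMI counts per gene and cell barcode that the authors made with Cell Ranger on hg38 (3.0.2 in the file headers of both shScr libraries and 3.0.0 in those of both shAPC libraries, so software version and shRNA cannot be told apart). Sources differ on the virus (retroviral or lentiviral) and on the kit version, and the annotation release was not given in the sources used here. Barcodes were kept if they had 200 or more genes, 500 or more UMIs and a share below 5% from the 13 MT- genes. No doublets were called or removed. UMIs were summed per library and scaled to CPM. CPM have exact Poisson intervals, ratios exact conditional binomial and shares exact Clopper-Pearson intervals, all 95% and for counting error only. The floor of 3 counts was 0.0754 to 0.105 CPM. Genes with at least 20 UMIs over a pair and a 2-fold ratio were counted. No fold was called where a count was 1 to 3 or both were 3 or less, apart from values given with their interval. In the shares of all genes, a gene with no UMI in 1 library was set to the floor and could be called. In the alternative counts of the 9 genes such a gene was left out. Scaling factors of edgeR 4.0.16 (TMM) and DESeq2 1.42.0 were alternatives, and no count test was run with 1 library per group. Cells were thinned with a fixed seed. The ratio and interval code was tested on simulated data. Promoters came from the RefSeq table. The 9 genes, the gene lists and the markers were chosen with earlier results of these data known. From each list at most the 3 genes with the largest absolute ratio were named, and PLA2G4A, MGLL, AREG, IL1B, NR4A1, VEGFA, CXCL1, CXCL8, PTGFR and ATF3 were named after their values were seen. Imputation and batch correction, which the study used, were not applied.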

Additional observations from a re-analysis of the deposited data

Results flagged for a closer look

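Between the days, 3 genes had shAPC/shScr log2 ratios of opposite sign whose counting intervals each left out 0. These were PTGS2 (2.64 at day 3 and -1.75 at day 7), PTGER2 (0.35 and -0.50) and PTGER4 (0.19 and -0.75). With 1 library per group the difference between the days was not tested. For PTGER2 and PTGER4 the sign at day 3 turns when ratios are taken relative to all genes, whereas that of PTGS2 does not.

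PTGIS, the prostacyclin synthase, stood out in barcodes outside the comparisons. In those removed for 5% or more mitochondrial UMIs at day 7 it had 4 UMIs in shScr and 26 in shAPC, a log2 ratio of 1.71 (0.18 to 3.68), against 14 and 15 UMIs in the kept cells.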

How the results depend on the processing

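The PTGS2 log2 ratio at day 3 was 2.64. It was 1.79 over all deposited barcodes, 1.77 with a mitochondrial limit of 10% and 3.83 as a mean over cells of each cell's CPM. Without the 1% of cells richest in PTGS2 it was 3.96. PTGS2 was so rare at day 3 (14 positive shScr cells, 46 with shAPC) that this cut left 3 of 15 and 41 of 82 UMIs. The cut takes a larger share of PTGS2 from shScr, which raises the ratio, so 3.96 cannot serve as a check on 2.64. At day 7 the PTGS2 log2 ratio was -1.75, and -0.80 over all deposited barcodes. Without the richest 1% of cells no value was had at day 7, since 0 UMIs were left in shAPC. The number of genes past 2-fold, 1 on each day, became 0 on each day with a minimum of 100 UMIs or of 20 CPM, which PTGS2 does not reach, and 2 on each day at 1.5-fold, which adds PTGES at day 3 and PTGER4 at day 7. At day 3 it also became 0 without the richest 1% of cells, because no fold was called on the 3 PTGS2 UMIs left in shScr. It became 2 at day 3 as a mean over cells, and at day 7 it became 0 over all deposited barcodes and with the 10% limit. Without the richest 1% of cells the gene past 2-fold at day 7 was PTGES, higher, in place of PTGS2.

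Signs turned at day 3 under TMM factors, DESeq2 size factors and ratios relative to the median gene for PTGES2 (-0.22, -0.20 and -0.19), PTGER2 (-0.0286, -0.0118 and -0.0002) and PTGER4 (-0.19, -0.17 and -0.16). As a mean over cells PTGES2 at day 3 became -0.0899, PTGES at day 7 -0.55, and PTGES in shScr from day 3 to day 7 0.28. PTGS2 in shScr from day 3 to day 7 became -1.22 without the richest 1% of cells, on 3 and 1 UMIs. That setting takes out most shScr cells with PTGS2, of which there were 14 and 27, so no direction can be drawn from it. TMM factors shift every day 3 ratio by -0.38 and DESeq2 size factors by -0.36, and the median gene that is subtracted was at 0.35. Small positive ratios turn with such a shift. Why signs turned as a mean over cells was not tested. Of the 386 alternative log2 ratios 320 moved by less than the counting error of the value reported. Of the 108 alternative shares 77 moved, since a share depends on the depth to which cells are thinned.

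No paired analysis was possible because each group holds 1 library, and no replicate was there to leave out. PTGS2, PTGIS and HPGD are limited by their low counts.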

Other observations

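The long noncoding RNA PACERR, which is transcribed next to PTGS2, had 2 and 3 UMIs at day 3 and 1 and 1 at day 7, shScr first, too few to compare. Both CXCL8 and CXCL1, chemokines that prostaglandin E2 is known to raise, had more UMIs than any of the 9 genes in each library. CXCL8 had 6881, 8565, 8911 and 5097 UMIs in the same order, with shAPC/shScr log2 ratios of 0.50 (0.46 to 0.55) and -0.67 (-0.72 to -0.62), and CXCL1 had 9778, 11701, 11377 and 8413, with 0.45 (0.41 to 0.49) and -0.30 (-0.34 to -0.26). In CPM the lowest library was shScr day 3 for both (173 CPM of CXCL8 and 246 of CXCL1) and the highest was shScr day 7 (285 and 364 CPM).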
